A study of Rattus norvegicus with 3 samples.

Results

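The Wnt ligands, their receptors and their secreted antagonists were followed in nuclei of the rat heart. Members were the genes whose symbol in the deposited gene list names a Wnt, a Frizzled (Fzd), an R-spondin (Rspo), a secreted Frizzled-related protein (Sfrp), a Dickkopf (Dkk), Wif1, Lgr4, Lgr5, Lgr6, Lrp5, Lrp6, Ror1 or Ror2. This gave 48 genes of 22250. The rule used names and no measured value, though it was chosen with earlier results of these data known. Single nuclei RNA-seq had been run on the heart apex, with portions of septum and of both ventricles, of rats at 12 months of age. The 3 genotypes had 1 library each. WT rats were littermates. BMD rats (R-BMDdel45-47, Sprague Dawley) carry a CRISPR/Cas9 deletion of exons 45 to 47 of Dmd that keeps the reading frame. DMD rats (R-DMDdel52) carry a deletion of exon 52 and make no dystrophin. Both deletions are in the germline and so in every cell type, and the sources used here do not state how many animals entered a library. Since each genotype is a single library, none of the differences below could be tested or checked in replicates. They are differences between libraries, and their 95% intervals cover counting error only.

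Wnts are secreted, lipid-modified proteins that bind Frizzled receptors. Together with the co-receptors Lrp5 and Lrp6 this stabilises beta-catenin, which acts with Tcf and Lef factors on target genes, while Ror1 and Ror2 serve branches that do not use beta-catenin. R-spondins bind Lgr4, Lgr5 and Lgr6 and protect Frizzleds from the ubiquitin ligases Rnf43 and Znrf3. Sfrp proteins and Wif1 bind Wnts outside the cell, and Dkk1 and Dkk2 bind Lrp5 and Lrp6. In the heart the pathway shapes development and is known to be engaged again after injury.

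The 24664 nuclei analysed had median depths of 1213, 1487 and 1229 UMIs in WT, BMD and DMD (unique molecular identifiers, each standing for 1 captured RNA), and the shallowest nucleus had 513. Clustering without the members gave 15 clusters, of which 13 were named as 10 classes from marker lists and 2, mostly of predicted doublets, stayed unnamed. The names were rebuilt from these markers, so every class is called "like". The cardiomyocyte-like class held 4960 nuclei, the fibroblast-like class 7431 and the endothelial-like class 4924. No doublets were removed, and Scrublet marked 5.08% to 10.7% of the nuclei of a library. Dmd itself was at 16364, 20325 and 18650 CPM in the cardiomyocyte-like nuclei of the WT, BMD and DMD libraries. The counts are given per gene and not per exon, so this value does not check the deleted exons. Nuclei barcodes shared between libraries numbered 12 to 20 per pair. The 9 cardiomyocyte markers summed to 34427 to 36211 CPM in cardiomyocyte-like nuclei. They were also found in every other class, at 746 to 1888 CPM in fibroblast-like and endothelial-like nuclei and at 4495 to 7825 CPM in macrophage-like and T or B-like nuclei. In monocyte or neutrophil-like nuclei these markers summed to 24104, 8711 and 9992 CPM in WT, BMD and DMD.

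Levels are UMIs per 1000000 UMIs of a class (CPM), with exact Poisson 95% intervals. The assay counts 1 end of a transcript and is not scaled by length, so a gene is compared across classes and libraries and not with other genes. The 48 members together held 51580 UMIs. No UMI was found for Wnt8a, Wnt8b, Wnt10a, Fzd8 and Dkk1 in any nucleus, which in the cardiomyocyte-like nuclei of 1 library allows a level of up to 0.444 to 0.737 CPM (3 UMIs). In all, 22 members stayed under 50 UMIs in every class, among them 12 of 19 Wnts, 4 of 9 Frizzleds and 3 of 9 antagonists. The other 26 reached 50 UMIs in at least 1 class, and 17 of these did so in the class where their CPM was highest. As the map of members over classes shows, the classes of highest level differed between members.

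**Figure D1:**
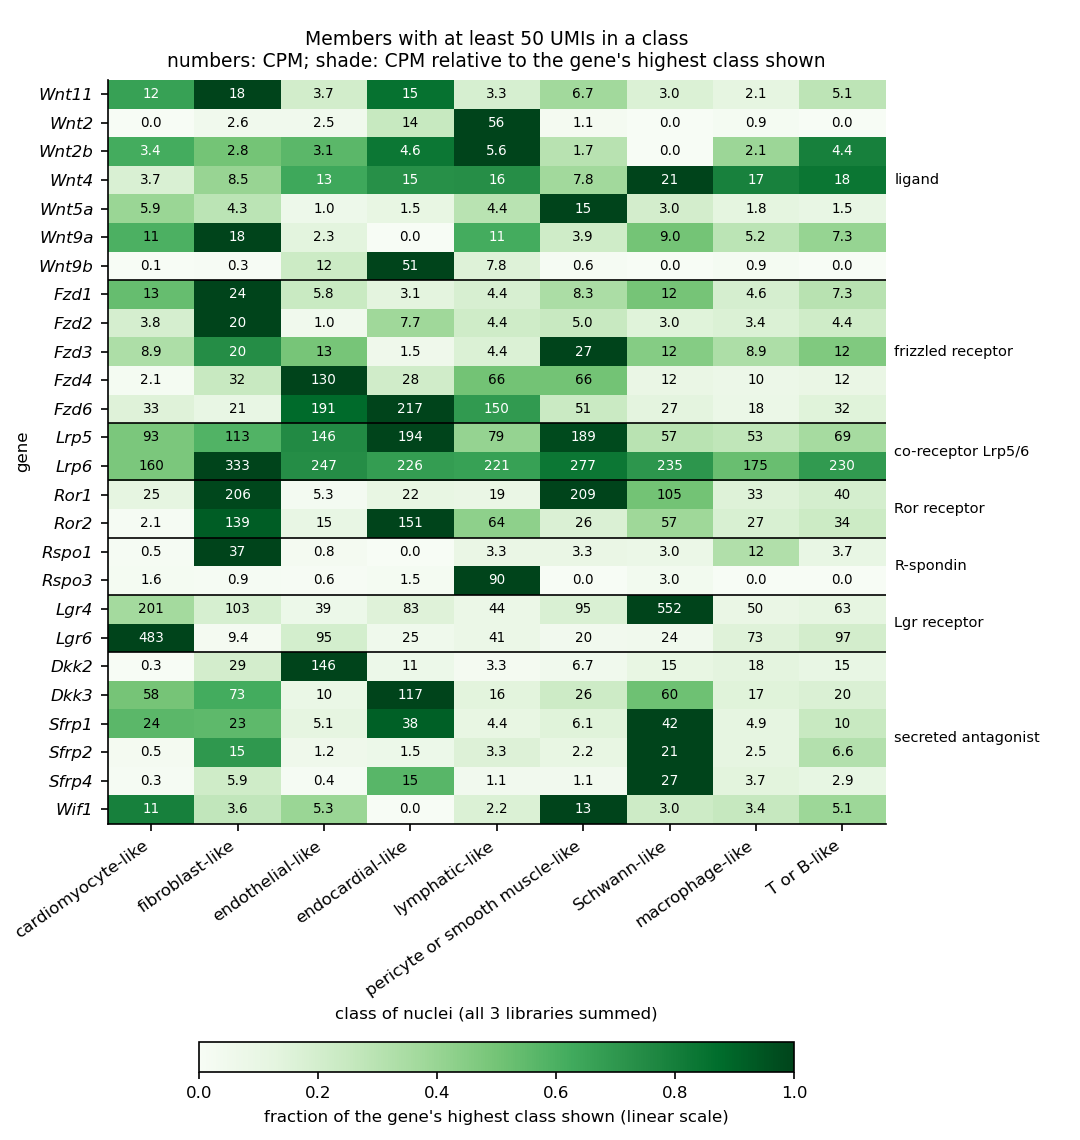
Level of the 26 members with at least 50 UMIs in a class (vertical axis, grouped by role) in 9 classes (horizontal axis), all 3 libraries summed; the number in each cell is CPM and the shade is the CPM relative to the gene's highest class shown. The monocyte or neutrophil-like class is left out for its low counts. Lgr6 is highest in cardiomyocyte-like nuclei (483 CPM), Dkk2 in endothelial-like nuclei (146 CPM), Rspo3 in lymphatic-like nuclei (90.0 CPM) and Lgr4 in Schwann-like nuclei (552 CPM).

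Among the ligands, Wnt2, Wnt9b and Wnt5a kept the same class of highest level in every library, while Wnt9a and Wnt11 did not. Wnt2, which takes part in early cardiac development, was highest in lymphatic-like nuclei at 55.5 CPM (41.2 to 73.2), against 13.8 CPM in endocardial-like nuclei and 2.6 CPM or less elsewhere. Its level there was 37.7 CPM in WT (7 UMIs), 66.6 CPM in BMD (26 UMIs) and 52.5 CPM in DMD (17 UMIs), and these 3 intervals overlap. Wnt9b, a ligand of the endocardium of forming valves, reached 50.8 CPM (35 to 71.3) in endocardial-like nuclei on 33 UMIs and 11.7 CPM (8.9 to 15) in endothelial-like nuclei. In the endocardial-like nuclei it stood at 36.2, 65.4 and 47 CPM in WT, BMD and DMD on 5, 14 and 14 UMIs, again with overlapping intervals. With the libraries summed, Wnt9a and Wnt11 were both highest in fibroblast-like nuclei at 18.1 CPM (15.7 to 20.8). Wnt11 is a ligand of beta-catenin-independent signalling in heart morphogenesis. Wnt9a was also found at 10.8 CPM and Wnt11 at 12.0 CPM in cardiomyocyte-like nuclei. Wnt11 was at 15.4 CPM in endocardial-like nuclei on 10 UMIs, the class of its highest level in BMD. Wnt9a was at 16.2 CPM in monocyte or neutrophil-like nuclei on 4 UMIs. That was its highest class in DMD, and in WT it was highest in Schwann-like nuclei. Wnt5a, the best known ligand of the Ror receptors, was at 15 CPM (9.9 to 21.8) in pericyte or smooth muscle-like nuclei, and its levels of 13.7, 15.3 and 16.1 CPM in WT, BMD and DMD have overlapping intervals.

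The Frizzled and Ror receptors were highest in vascular, pericyte or fibroblast-like classes. Fzd4, a receptor of blood vessels, was at 130 CPM in endothelial-like nuclei, 65.5 CPM in both lymphatic-like and pericyte or smooth muscle-like nuclei, and 2.1 CPM in cardiomyocyte-like nuclei. Fzd6 reached 217 CPM (183 to 256) in endocardial-like, 191 CPM (179 to 203) in endothelial-like and 150 CPM (126 to 177) in lymphatic-like nuclei. The first and second of these do not separate, and every other class was at 51.1 CPM or less. Fzd1 and Fzd2 were highest in fibroblast-like nuclei at 24.4 and 20.3 CPM. The co-receptor Lrp6 was broad, from 160 CPM in cardiomyocyte-like to 333 CPM in fibroblast-like nuclei. Lrp5 was at 194 CPM in endocardial-like and 189 CPM in pericyte or smooth muscle-like nuclei, which do not differ beyond counting error. Ror1 was at 209 CPM (189 to 232) in pericyte or smooth muscle-like and 206 CPM (198 to 215) in fibroblast-like nuclei, and Ror2 at 151 CPM in endocardial-like and 139 CPM in fibroblast-like nuclei. Both were low in endothelial-like nuclei, at 5.3 and 15 CPM.

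The R-spondins Rspo1 and Rspo3 and the receptors Lgr4 and Lgr6 had their highest levels in 4 different classes, with overlap below the highest level. Rspo1 was highest in fibroblast-like nuclei at 37.1 CPM (33.6 to 40.8), which held 75.2% of its UMIs, and was at 41.4, 33.5 and 34.0 CPM in the WT, BMD and DMD libraries. Rspo3 was highest in lymphatic-like nuclei at 90.0 CPM (71.4 to 112) on 81 of its 125 UMIs, with 3.0 CPM or less in each other class. It was at 108, 105 and 61.7 CPM in WT, BMD and DMD, on 20, 41 and 20 UMIs. The receptor Lgr6 had 80.0% of its 10424 UMIs in cardiomyocyte-like nuclei. There WT stood at 489 CPM (472 to 506), BMD at 526 CPM (509 to 544) and DMD at 405 CPM (385 to 425). DMD was the lowest of the 3, by less than the 1.5-fold used below. Thinned to 500 UMIs per nucleus, 21.2% of WT, 21.9% of BMD and 16% of DMD cardiomyocyte-like nuclei held a Lgr6 UMI, against 0.341%, 0.729% and 0.752% of fibroblast-like nuclei. Unthinned, the cardiomyocyte-like shares were 65.3%, 70.5% and 53.8%. Its second highest class was monocyte or neutrophil-like, at 150 CPM on 37 UMIs. Lgr6 was also at 96.9 CPM in T or B-like, 95.1 CPM in endothelial-like and 73.4 CPM in macrophage-like nuclei. The cardiomyocyte markers in these classes are given above. Lgr4 was highest in Schwann-like nuclei at 552 CPM on 183 UMIs, and second highest in cardiomyocyte-like nuclei at 201 CPM (195 to 208). In fibroblast-like nuclei, the class of highest Rspo1, Lgr4 was at 115, 92.4 and 95.2 CPM in the WT, BMD and DMD libraries. Lgr5, also a widely used Wnt target, had 12 UMIs in all.

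Of the secreted antagonists, 6 reached 50 UMIs in a class. Dkk2 was at 146 CPM in endothelial-like nuclei, 29.2 CPM in fibroblast-like nuclei and 0.3 CPM in cardiomyocyte-like nuclei. Dkk3, a divergent Dickkopf, was highest in endocardial-like nuclei at 117 CPM (92.1 to 146), with 72.6 CPM in fibroblast-like and 58.0 CPM in cardiomyocyte-like nuclei. Sfrp1 was at 23.6 CPM in cardiomyocyte-like and 23.3 CPM in fibroblast-like nuclei when the libraries were summed. It was higher on few UMIs, at 42.2 CPM in Schwann-like (14 UMIs) and 38.5 CPM in endocardial-like nuclei (25 UMIs). Sfrp2 was at 14.7 CPM in fibroblast-like and 0.5 CPM in cardiomyocyte-like nuclei, and highest in Schwann-like nuclei at 21.1 CPM on 7 UMIs. Wif1, found at 10.5 CPM (9.1 to 12.2) in cardiomyocyte-like nuclei, was at 8.9, 12.3 and 10.3 CPM in WT, BMD and DMD, and these do not separate. At a finer clustering, a cluster of 240 nuclei led by the smooth muscle genes Myh11 and Acta2 held Wif1 at 64.3 CPM, and 22 of its 24 UMIs there came from DMD. The bone matrix genes Ibsp, Bglap and Dmp1 were also among its 10 leading genes, and 31.7% of its nuclei were predicted doublets.

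The design asks how BMD and DMD hearts differ from WT and from each other. A member was compared in a class where both libraries together held at least 50 UMIs, which gave 66 pairs of member and class for each comparison. The comparisons share libraries and are not independent. BMD was higher than WT by 1.5-fold or more in 7 pairs, with 6.73% of all gene and class pairs doing so, and lower in 16, with 9.79% of all pairs. DMD over WT gave 13 higher pairs, with 8.44% of all pairs, and 4 lower, with 7.44%. DMD over BMD gave 14 higher pairs, with 9.14% of all pairs, and 4 lower, with 4.94%. Summed over the members, the level was 1182, 1183 and 1087 CPM in cardiomyocyte-like, 1231, 1295 and 1309 CPM in fibroblast-like and 1202, 1024 and 1110 CPM in endothelial-like nuclei of WT, BMD and DMD.

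In cardiomyocyte-like nuclei the antagonist Sfrp1 stood out in the DMD library. Its level was 9.95 CPM in WT (64 UMIs), 16.4 CPM in BMD (111 UMIs) and 57.3 CPM in DMD (233 UMIs). DMD lay far above both other libraries, and BMD lay between them. The log2 ratio was 2.52 (2.12 to 2.95) for DMD over WT, 0.72 (0.27 to 1.19) for BMD over WT and 1.80 (1.47 to 2.14) for DMD over BMD. After thinning to 500 UMIs, 0.626% of WT, 0.873% of BMD and 2.35% of DMD cardiomyocyte-like nuclei held a Sfrp1 UMI. In endothelial-like nuclei, where Sfrp1 is low, the shares were 0 of 1536 in WT, which allows a share of up to 0.195%, then 0.267% in BMD and 0.318% in DMD. Unthinned, the cardiomyocyte-like shares were 2.12%, 4.80% and 12.4%. Fibroblast markers in cardiomyocyte-like nuclei were highest in DMD too. All 9 were detected in each library, with a summed level of 220, 169 and 889 CPM in WT, BMD and DMD. Fibroblast-like nuclei of DMD held Sfrp1 at 19.2 CPM, below the 57.3 CPM of DMD cardiomyocyte-like nuclei. With free RNA subtracted, the DMD over WT ratio of Sfrp1 was 2.64. The part of fibroblast RNA in the Sfrp1 difference was not tested. A shallow cluster of the class, with a median of 969 UMIs and led by Gadd45g, Pgam2 and Nppb, held 3.08%, 7.17% and 18.5% of its nuclei in WT, BMD and DMD. Without it Sfrp1 was at 10.2, 17.0 and 61.2 CPM. Monocyte or neutrophil markers in the whole class summed to 26.3, 22.4 and 228 CPM, with 7, 9 and 9 of 9 detected, and their part was not tested either.

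Finer clusters split the cardiomyocyte-like nuclei by library. A cluster led by Dhrs7c, Ky and Myh6 held 85.1% of the WT, 23.6% of the BMD and 32.5% of the DMD nuclei of the class, and one led by Xirp2, Hs3st2 and Acta1 held 11.9%, 69.1% and 61.0%. Sfrp1 was at 8.8, 16.8 and 49.1 CPM in the first and at 18.8, 17.1 and 65.1 CPM in the second. DMD was the highest library in both, while BMD exceeded WT only in the first, on 21 UMIs in BMD. Ror1 differed in this respect. Over the whole class it was at 16 CPM in WT (103 UMIs), 28.6 CPM in BMD (193 UMIs) and 33.9 CPM in DMD (138 UMIs). The log2 ratios over WT were 0.84 (0.48 to 1.19) for BMD and 1.08 (0.70 to 1.46) for DMD. Ror1 was at 206 CPM in fibroblast-like nuclei, whose markers in cardiomyocyte-like nuclei are given above. Their part in the Ror1 difference was not tested. In the Dhrs7c cluster Ror1 was at 9.9, 14.4 and 27.4 CPM, but in the Xirp2 cluster it was at 52 CPM in WT (47 UMIs), 33.2 CPM in BMD and 35.2 CPM in DMD. WT was thus the highest library there, with log2 ratios of -0.65 (-1.12 to -0.15) for BMD and -0.56 (-1.08 to -0.03) for DMD over WT. At this resolution the cluster led by Gadd45g, Pgam2 and Nppb held 62, 117 and 72 nuclei of WT, BMD and DMD. In the coarser clustering it had held 64, 115 and 236. The shares above thus rest on fewer DMD nuclei than the class of the coarser clustering. An unnamed cluster of the finer resolution, led by S100a8 and S100a9, held 3, 1 and 167 nuclei of WT, BMD and DMD. It had a median of 720 UMIs and raised 6 of 9 fibroblast markers. Whether the missing DMD nuclei lay in it was not tested. How far the share of each cluster accounts for the class value was not tested.

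Several ligands were low in the BMD cardiomyocyte-like nuclei. Wnt9a was at 14.8 CPM in WT (95 UMIs), 4.74 CPM in BMD (32 UMIs) and 14.5 CPM in DMD (59 UMIs), so that BMD stood apart from both others. The log2 ratio of BMD over WT was -1.64 (-2.27 to -1.05). Wnt5a stood at 7.62, 3.55 and 7.13 CPM and Wnt11 at 15.5, 9.18 and 11.1 CPM, with ratios of -1.10 (-1.87 to -0.37) and -0.76 (-1.24 to -0.29) for BMD over WT. For these 3 ligands BMD was the lowest library. For Wnt11 it did not separate from DMD, with a DMD over BMD ratio of 0.27 (-0.32 to 0.85). Fzd2 had BMD highest, at 1.87 CPM in WT (12 UMIs), 6.22 CPM in BMD (42 UMIs) and 2.95 CPM in DMD (12 UMIs). Dkk3 had DMD lowest, at 69.5, 56.4 and 42.5 CPM, a DMD over WT ratio of -0.71 (-0.97 to -0.45). Fzd3 was at 7.15, 8.88 and 11.8 CPM, a DMD over WT ratio of 0.72 (0.11 to 1.34). In this class 3 of 15 members were higher and 3 lower by 1.5-fold in BMD over WT, with 8.08% and 9.19% of all genes. DMD over WT gave 3 higher and 1 lower of 14, with 12.5% and 9.2% of all genes. The median log2 ratio of the members was 0.03 in BMD and -0.10 in DMD, beside -0.06 and -0.01 for all genes.

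**Figure D2:**
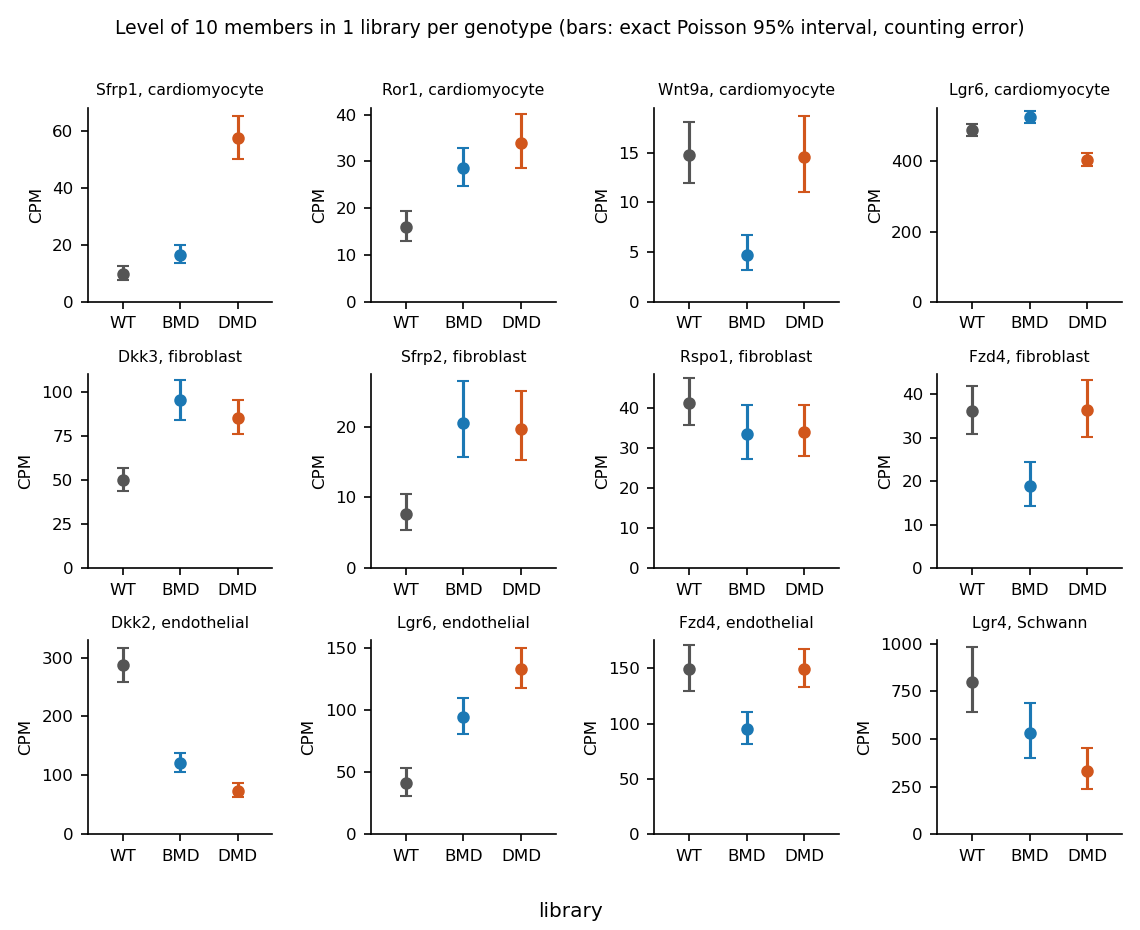
Level in CPM (vertical axes, starting at 0) of 10 members in the WT, BMD and DMD libraries (horizontal axes), with the class named above each panel; points are the level of the class in that library and bars the exact Poisson 95% interval. Sfrp1 in cardiomyocyte-like nuclei runs from 9.95 CPM in WT to 57.3 CPM in DMD, and Dkk2 in endothelial-like nuclei from 287 CPM in WT to 73.8 CPM in DMD.

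In fibroblast-like nuclei both mutant libraries held more Dkk3 and more of the antagonist Sfrp2 than WT. Dkk3 was at 49.9 CPM in WT (242 UMIs), 95.2 CPM in BMD (278 UMIs) and 85.4 CPM in DMD (294 UMIs), and Sfrp2 at 7.63, 20.5 and 19.7 CPM on 37, 60 and 68 UMIs. WT was the lowest library for both, and BMD and DMD lay close together. The log2 ratios over WT were 0.93 (0.68 to 1.19) and 0.77 (0.52 to 1.03) for Dkk3 and 1.43 (0.81 to 2.06) and 1.37 (0.77 to 1.99) for Sfrp2. Sfrp4 had the same order of libraries, at 2.1, 9.6 and 8.1 CPM, but with only 10, 28 and 28 UMIs it was below the count needed for a comparison with WT. Sfrp1 had the reverse order, at 28.7, 19.2 and 19.2 CPM, with a ratio of -0.58 in both comparisons, just inside the 1.5-fold line.

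The make-up of the fibroblast-like class also differed between libraries. A finer cluster led by Ccn5, Cacna2d3 and Gfpt2, with Pi16 and Fbn1 among its leading genes, held 14.1% of the WT, 43.2% of the BMD and 30.9% of the DMD nuclei of the class. These shares leave out a cluster of 755 WT, 213 BMD and 229 DMD nuclei that raised 7 of 9 fibroblast markers. It stayed unnamed at this resolution because another class had more markers among its 10 leading genes. The Ccn5 cluster was the fibroblast-like one with the highest Dkk3 (151 CPM) and Sfrp2 (39.1 CPM). Within it Dkk3 was at 117, 166 and 158 CPM in the WT, BMD and DMD libraries, ratios of 0.51 (0.13 to 0.89) and 0.43 (0.05 to 0.82) over WT. Sfrp2 within it was at 22.0, 42.4 and 46.6 CPM, ratios of 0.95 (0.11 to 1.85) and 1.08 (0.25 to 1.99). In the largest fibroblast-like cluster, led by Colec11 and Pla2g2a, Dkk3 was at 46.8, 43.1 and 53.4 CPM and the libraries did not separate. In both of these clusters the Dkk3 ratios over WT were smaller than over the whole class. The other 2 fibroblast-like clusters held 43 and 44 Dkk3 UMIs each and gave wide intervals. How much of the class difference goes with the share of each cluster was not tested.

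Other members differed between BMD and the other libraries in fibroblast-like nuclei. Fzd4 was at 36.1 CPM in WT (175 UMIs), 18.8 CPM in BMD (55 UMIs) and 36.3 CPM in DMD (125 UMIs), and Fzd1 at 26.8, 15.4 and 28.7 CPM. BMD was the lowest library for both, with ratios over WT of -0.94 (-1.40 to -0.49) and -0.80 (-1.32 to -0.30). Wnt4 was at 9.48, 4.11 and 10.7 CPM on 46, 12 and 37 UMIs, also lowest in BMD. Dkk2 and Wnt9a were highest in DMD, at 23.5, 24.6 and 41.2 CPM and at 15.9, 14.0 and 24.7 CPM, with DMD over WT ratios of 0.81 (0.45 to 1.18) and 0.64 (0.17 to 1.10). Lgr6 was at 5.98, 13.3 and 11 CPM, beside cardiomyocyte markers at 746, 1189 and 956 CPM in these nuclei, of which 9 of 9 were detected in each library. Their part in the Lgr6 difference was not tested. Lrp6, with 1174 UMIs or more in each library, was at 278, 402 and 353 CPM, ratios of 0.53 (0.42 to 0.64) and 0.34 (0.23 to 0.45) that stayed under 1.5-fold. In all, 3 of 19 members were higher and 3 lower by 1.5-fold in BMD over WT, with 5.99% and 10.4% of all genes. DMD over WT gave 5 higher and 0 lower of 19, with 5.58% and 5.51% of all genes, and the median log2 ratio of the members was -0.18 in BMD and 0.18 in DMD beside -0.05 and -0.02 for all genes.

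**Figure D3:**
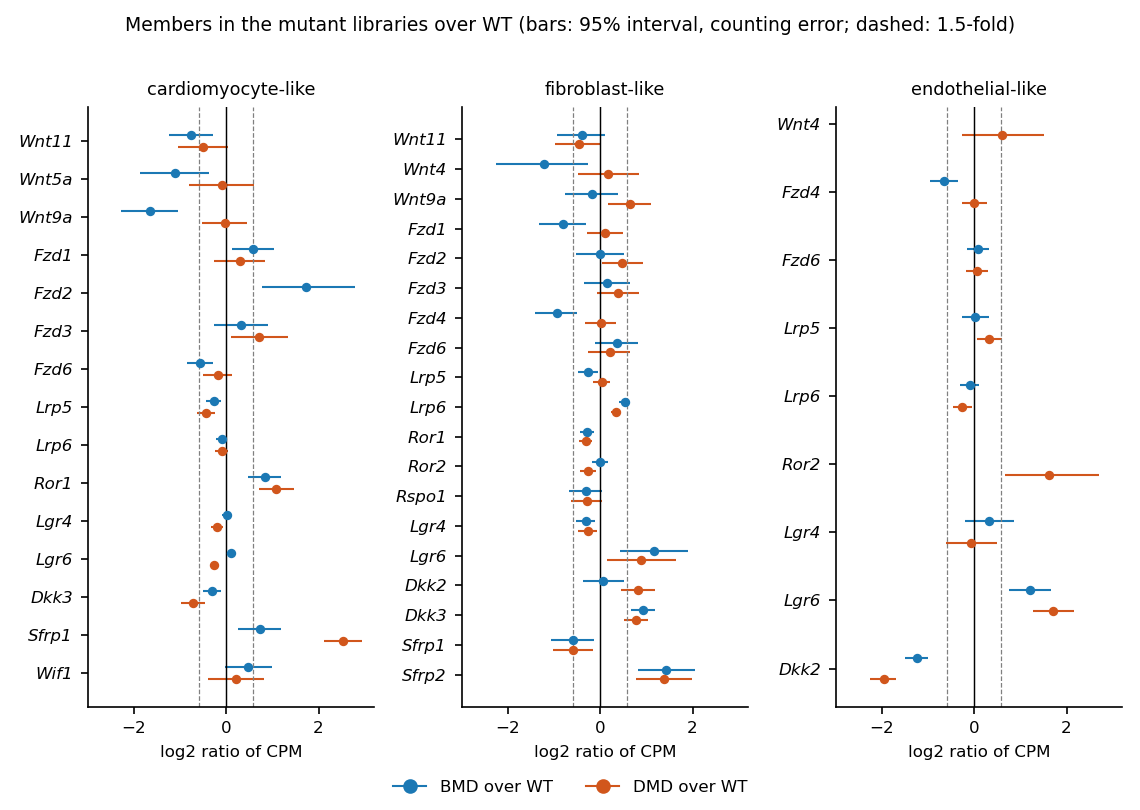
Log2 ratio of CPM (horizontal axes) of each member compared (vertical axes) in the BMD and DMD libraries over WT in 3 classes; bars are 95% intervals of counting error and dashed lines mark 1.5-fold. Sfrp1 reaches 2.52 in DMD cardiomyocyte-like nuclei, and Dkk2 lies at -1.25 and -1.96 in endothelial-like nuclei.

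Endothelial-like nuclei showed 2 members with opposite orders of the libraries, the antagonist Dkk2 and the R-spondin receptor Lgr6. For Dkk2, WT stood at 287 CPM (259 to 317), BMD at 121 CPM (105 to 138) and DMD at 73.8 CPM (62.3 to 86.7), on 387, 218 and 147 UMIs. The 3 intervals did not overlap, and WT was the highest library. The log2 ratio was -1.25 (-1.49 to -1.0) for BMD and -1.96 (-2.24 to -1.68) for DMD over WT. With only nuclei of at least 1000 UMIs, clustered anew, Dkk2 was at 470, 96.5 and 105 CPM. The BMD over WT ratio was then -2.28, and that of DMD over BMD turned from -0.71 to 0.12. Lgr6 was at 40.8 CPM in WT (55 UMIs), 93.8 CPM in BMD (169 UMIs) and 133 CPM in DMD (265 UMIs), with WT lowest and DMD highest. Its ratios were 1.20 (0.75 to 1.67) and 1.70 (1.28 to 2.15). The 9 cardiomyocyte markers, all detected in these nuclei of each library, summed to 1247, 1888 and 1495 CPM. DMD fibroblast-like nuclei, with cardiomyocyte markers at 956 CPM, held Lgr6 at 11 CPM, and with free RNA subtracted the DMD over WT ratio of Lgr6 in endothelial-like nuclei was 2.02. The part of cardiomyocyte RNA in the Lgr6 difference was not tested. The DMD over WT ratio was 1.06 with only nuclei of at least 1000 UMIs.

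Both genes were concentrated in 1 endothelial-like cluster. At the finer resolution, 720 of the 752 endothelial-like Dkk2 UMIs lay in a cluster of 900 nuclei. Beside Dkk2, its 10 leading genes included Gja5, Sox17, Bmx and Gja4, genes known from arterial endothelium. The others were Tmem63c, Ifitm10, Sema3g, Eps8l2 and Slc26a10. Dkk2 was not used to form the clusters. This cluster held 15.9%, 24.1% and 15.6% of the endothelial-like nuclei of WT, BMD and DMD. Within it Dkk2 was at 1820 CPM in WT (386 UMIs), 527 CPM in BMD (216 UMIs) and 413 CPM in DMD (118 UMIs), and Lgr6 at 141, 278 and 563 CPM on 30, 114 and 161 UMIs. The order of the libraries was that of the whole class for both genes, with DMD over WT ratios of -2.14 (-2.45 to -1.84) and 1.99 (1.42 to 2.61). In the other clusters, led by Unc5c and by Pdcd1lg2, Dkk2 was at 25.0 CPM or less in every library. Lgr6 in the Pdcd1lg2 cluster was at 46.8, 56.6 and 127 CPM. In the coarser clustering the cluster led by Unc5c, Rasa4 and Pde1c held 52.5%, 41.8% and 54.2% of the endothelial-like nuclei of WT, BMD and DMD. The one led by Sox17 and Btnl9 held 47.5%, 58.2% and 45.8%.

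**Figure D4:**
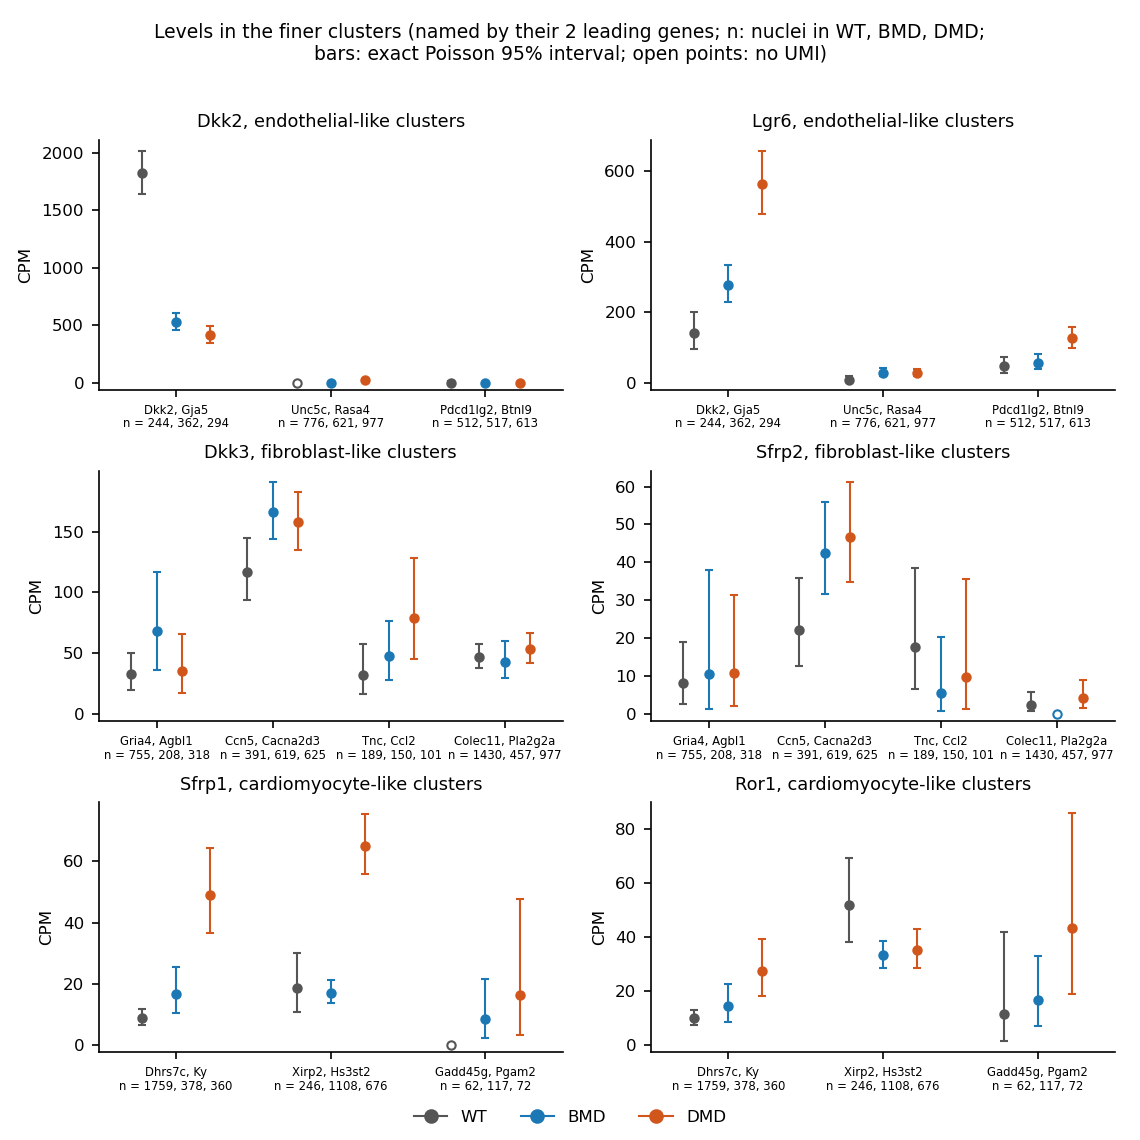
Level in CPM (vertical axes) of 6 members in the clusters of a finer resolution (horizontal axes, each named by its 2 leading genes with its nuclei in WT, BMD and DMD); points are libraries, bars exact Poisson 95% intervals and open points libraries with no UMI. In the cluster led by Dkk2 and Gja5, Dkk2 is at 1820 CPM in WT and 413 CPM in DMD while Lgr6 is at 141 and 563 CPM.

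Fzd4 was lower in BMD than in WT in 3 classes. In endothelial-like nuclei it was at 149, 94.9 and 150 CPM in WT, BMD and DMD on 201, 171 and 298 UMIs, a BMD over WT ratio of -0.65 (-0.95 to -0.35). In pericyte or smooth muscle-like nuclei it was at 91.6 CPM in WT (60 UMIs), 43.9 CPM in BMD (23 UMIs) and 56.4 CPM in DMD (35 UMIs), ratios of -1.06 (-1.82 to -0.35) and -0.70 (-1.35 to -0.08). DMD lay close to WT in endothelial-like and fibroblast-like nuclei but not in the pericyte or smooth muscle-like class. Ror2 in endothelial-like nuclei was at 8.16, 8.88 and 25.1 CPM on 11, 16 and 50 UMIs, highest in DMD, where fibroblast markers were also highest, at 998, 792 and 1564 CPM. Ror2 was at 139 CPM in fibroblast-like nuclei, and the part of these markers in the difference was not tested. Wnt4 in the same class was at 12.6, 7.77 and 19.1 CPM on 17, 14 and 38 UMIs, with a DMD over BMD ratio of 1.30 (0.38 to 2.29). In all, 1 of 7 members was higher and 2 lower by 1.5-fold in BMD over WT, with 4.42% and 8.02% of all genes. DMD over WT gave 3 higher and 1 lower of 9, with 5.29% and 4.06% of all genes.

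The smaller classes gave fewer comparisons. Lgr4 in Schwann-like nuclei was at 800 CPM in WT (90 UMIs), 530 CPM in BMD (54 UMIs) and 332 CPM in DMD (39 UMIs), with ratios over WT of -0.59 (-1.11 to -0.09) and -1.27 (-1.85 to -0.71). WT was the highest library and DMD the lowest. The 8 Schwann markers detected summed to 9843, 8150 and 5809 CPM in the same order, and the cluster was also led by the B cell genes Ighm, Bank1 and Pax5. At the finer resolution, where a Schwann-like cluster without these genes held Lgr4 at 924 CPM, the ratios were -0.06 (-0.58 to 0.46) and -0.62 (-1.24 to -0.04). Lrp6 in Schwann-like nuclei was at 320, 157 and 221 CPM on 36, 16 and 26 UMIs, lowest in BMD. Its BMD over WT ratio was -1.03 (-1.97 to -0.14), and DMD with BMD fell below the count needed for a comparison. In pericyte or smooth muscle-like nuclei Lgr4 was at 97.7, 51.5 and 129 CPM, lowest in BMD.

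Endocardial-like nuclei held Fzd6 at 304, 131 and 239 CPM on 42, 28 and 71 UMIs in WT, BMD and DMD, lowest in BMD with a ratio over WT of -1.22 (-1.96 to -0.49). With only nuclei of at least 1000 UMIs the WT level of Fzd6 was 176 CPM and this ratio -0.62. Lrp5 there was at 130, 182 and 232 CPM on 18, 39 and 69 UMIs, with a DMD over WT ratio of 0.83 (0.07 to 1.67) that was 0.29 at the finer resolution. Ror2 was at 174, 79.4 and 191 CPM on 24, 17 and 57 UMIs, lowest in BMD. Its DMD over BMD ratio was 1.27 (0.47 to 2.14), and BMD with WT fell below the count needed for a comparison. In macrophage-like nuclei of WT, BMD and DMD, Dkk2 was at 31.8, 14.6 and 6.0 CPM, Ror2 at 31.8, 17.5 and 31.0 CPM and Ror1 at 26.1, 25.3 and 48.0 CPM. The 9 fibroblast markers summed to 2256, 1648 and 3628 CPM in the macrophage-like nuclei of WT, BMD and DMD. With predicted doublets removed, the Dkk2 and Ror2 ratios changed sign. In lymphatic-like nuclei Rspo3 was lower in DMD than in BMD, at 61.7 and 105 CPM on 20 and 41 UMIs, with an interval that includes 0.

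Other genes of the pathway were read from a list of 72, of which 70 had a row in the files. In cardiomyocyte-like nuclei 2 of 45 were higher and 8 lower by 1.5-fold in BMD over WT, and 3 of 44 higher and 7 lower in DMD over WT, with a median log2 ratio of -0.11 and -0.14. Of all genes in this class, 8.08% were higher and 9.19% lower in BMD over WT, and 12.5% higher and 9.2% lower in DMD over WT. Rnf43, the ligase that removes Frizzleds from the membrane, was at 107 CPM in WT (686 UMIs), 54.0 CPM in BMD (365 UMIs) and 54.1 CPM in DMD (220 UMIs). Its ratio was -0.98 in both comparisons. Bcl9, a coactivator of beta-catenin, was at 24.3, 9.33 and 12.5 CPM, Tle1, a co-repressor, at 41.4, 24.0 and 21.9 CPM, and Kremen1, a partner of Dickkopf proteins, at 44.0, 29.2 and 23.6 CPM. WT was the highest library for each of these 4 genes. Myc, a target gene of the pathway and of others, was at 4.66, 17.3 and 13.3 CPM, and Reck, a co-receptor for Wnt7 ligands, at 2.33, 7.85 and 10.1 CPM, both lowest in WT. Reck was at 149 CPM in fibroblast-like nuclei, whose markers in cardiomyocyte-like nuclei are given above.

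In fibroblast-like nuclei 4 of 54 pathway genes were higher and 5 lower by 1.5-fold in BMD over WT, and 1 of 55 higher and 5 lower in DMD over WT. Of all genes in this class, 5.99% were higher and 10.4% lower in BMD over WT, and 5.58% higher and 5.51% lower in DMD over WT. Frzb, a secreted Frizzled-related antagonist also known as Sfrp3, was at 13.4 CPM in WT (65 UMIs), 4.45 CPM in BMD (13 UMIs) and 0.58 CPM in DMD (2 UMIs), so that Frzb was highest in WT where Sfrp2 was lowest. Its ratios were -1.59 (-2.57 to -0.72) and -4.53 (-7.60 to -2.62). Trabd2b, a protease that inactivates Wnts, was at 14.6, 43.1 and 31.4 CPM. It was highest in cardiomyocyte-like nuclei, at 709 CPM, and the cardiomyocyte markers in fibroblast-like nuclei given above had the same order of libraries. Their part was not tested. Gpc4, a glypican, was at 45.8, 21.2 and 23.8 CPM. In endothelial-like nuclei 0 of 40 were higher and 2 lower in BMD over WT, and 1 higher and 0 lower in DMD over WT, beside 4.42%, 8.02%, 5.29% and 4.06% of all genes in the same order. Of the target genes, Axin2 was highest in T or B-like nuclei at 22.0 CPM on 30 UMIs, with 3.3 CPM or less in each other class. Lef1 at 396 CPM, Rnf43 at 327 CPM, Tcf7 at 203 CPM and Myc at 22.0 CPM were also highest there. At the finer resolution Lef1 was among the 10 leading genes of a T or B-like cluster, beside Themis, Skap1 and Bcl11b. Whether these levels reflect pathway activity or the kind of cell was not tested. Lbh was highest in cardiomyocyte-like nuclei at 547 CPM, and Ccnd1 in macrophage-like nuclei at 94.6 CPM. Nkd1 was highest in pericyte or smooth muscle-like nuclei at 27.8 CPM, and Apcdd1 in endocardial-like nuclei at 27.7 CPM on 18 UMIs. Notum and Sp5 had at most 3 UMIs in a class.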

How the data were processed

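Nuclei from the heart apex were FACS-sorted and prepared with a 10x Genomics kit. The labels and the study's methods name 3′ chemistry (version 3.1), while its results section names 5′ chemistry. Which end of a transcript was counted is thus not settled here. The authors deposited raw counts, that is UMIs per gene and barcode from Cell Ranger with the rn6 build named in the submitters' processing notes, for all barcodes. The WT file is an aggregate of 3 libraries: 2 of its barcode suffixes hold exactly the barcodes of the BMD and DMD files, and the remaining suffix was taken as WT. BMD and DMD were read from their own files. By their headers, the aggregate and the other files come from unlike Cell Ranger versions, and counting of introns is not given in the sources used here, so a counting difference of WT from the others cannot be told apart from genotype.

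As nuclei, the deepest barcodes up to the number the study's methods give per library were taken, which held 70.8% to 79.4% of the UMIs. No doublet or mitochondrial filter was applied. With the members and the pathway list left out, 2000 variable genes, 30 principal components and 15 neighbours gave Leiden clusters at resolution 0.5 (scanpy 1.11.5, igraph 0.11.9). A class name needed 3 markers or more raised 2-fold over the other nuclei, each with 10 UMIs or more. The fold was taken on CPM with 5 added. A cluster took the class with the largest share of markers raised, and near shares were decided by the 10 leading genes. It stayed unnamed where another class had more markers among these 10 genes. Other grounds were many raised markers (at least 5) of an unrelated class, mitochondrial genes in the lead, or shallow nuclei. UMIs were summed per class and library. CPM have exact Poisson intervals and log2 ratios exact conditional binomial intervals at 95% (scipy 1.17.1). Calculations were tested on simulated data.

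Members are all genes matching the symbol rule, and they and the lists were chosen with earlier results of these data known. Values were given for members with at least 50 UMIs in the class where they were highest, and for members past 1.5-fold in a comparison with at least 50 UMIs over both libraries and an interval without 0. Members and clusters named for other reasons were chosen after their values were seen. The alternatives were at least 1000 UMIs per nucleus, doublets removed, at most 5% mitochondrial UMIs, resolution 1.0, members left in the clustering, free RNA from barcodes of at most 50 UMIs subtracted, the thinned counts of the aggregate, TMM scaling (edgeR 4.0.16), a mean over nuclei, and other minimums and folds. Member sequences were not used here.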

Additional observations from a re-analysis of the deposited data

Results flagged for a closer look

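A few members differed between libraries by 1.5-fold or more in opposite directions in 2 classes, with intervals that left out 0 in both. The difference between classes was not tested. Members with a smaller difference in 1 of the classes are not listed here. Among these is Sfrp1, with a DMD over WT ratio of 2.52 in cardiomyocyte-like and -0.58 in fibroblast-like nuclei. Dkk2 had a DMD over WT log2 ratio of -1.96 in endothelial-like and 0.81 in fibroblast-like nuclei, and a DMD over BMD ratio of -0.71 and 0.74 in these classes. Dkk3 had a DMD over WT ratio of -0.71 in cardiomyocyte-like and 0.77 in fibroblast-like nuclei. Lgr4 had a DMD over BMD ratio of -0.67 in Schwann-like and 1.32 in pericyte or smooth muscle-like nuclei. With only nuclei of at least 1000 UMIs the Schwann-like ratio was -0.38, within 1.5-fold.

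The unnamed clusters, which no comparison used, also held members above the WT level. Dkk3 had a log2 ratio of 1.25 for BMD over WT and 0.93 for DMD over WT there, and Sfrp1 had 0.94 for DMD over WT. Of the nuclei of these 2 clusters, 89.9% and 83.8% were predicted doublets. The second, led by Nrg1 and Smoc1, raised 8 endothelial and 8 fibroblast markers. It held 40.6%, 39.7% and 59.3% of the unnamed nuclei of WT, BMD and DMD. The part of this make-up in the ratios was not tested.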

How the results depend on the processing

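Over all alternatives, 479 of 494 log2 ratios of named members and 338 of 357 levels stayed within their counting interval, 12 ratios and 19 levels moved out of it, and 3 ratios changed sign. Requiring 1000 UMIs per nucleus turned the Dkk2 ratio of DMD over BMD in endothelial-like nuclei to 0.12, and removing doublets turned the BMD over WT ratios in macrophage-like nuclei to 0.0069 for Dkk2 and 0.64 for Ror2. The ratio of Sfrp1 in cardiomyocyte-like nuclei of DMD over WT ran from 2.43 to 2.64, that of Dkk2 in endothelial-like nuclei from -2.25 to -1.86, and that of Lgr6 there from 1.06 to 2.02, lowest with 1000 UMIs. Some other ratios over WT came within 1.5-fold under 1 alternative or more: DMD over WT reached -0.48 for Dkk3 and 0.51 for Fzd3 in cardiomyocyte-like nuclei, 0.58 for Dkk2, 0.54 for Lgr6 and 0.56 for Wnt9a in fibroblast-like nuclei, and -0.45 for Fzd4 in pericyte or smooth muscle-like nuclei, and BMD over WT -0.39 for Fzd4 in endothelial-like nuclei.

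Counts of members past the fold moved by over 1.5 times in 22 of 66 cases. With 1000 UMIs per nucleus 9 of 59 were lower in BMD over WT and 1 of 63 in DMD over BMD. The shares of all gene and class pairs were 9.79% and 5.80%. With doublets removed 2 of 59 were lower in DMD over BMD, beside 4.67% of all pairs. With free RNA subtracted 7 of 60 were lower in DMD over WT, beside 9.72% of all pairs. In DMD over BMD 2 of 56 were then lower, beside 5.99%. With 100 UMIs per comparison 4 of 46 were higher and 7 lower in BMD over WT, beside 5.21% and 7.62% of all pairs. In DMD over WT 7 of 47 were higher, beside 6.12%. In DMD over BMD 7 of 49 were higher and 1 lower, beside 6.35% and 3.52%. With no minimum 34 of 172 were higher and 50 lower in BMD over WT, beside 15.1% and 19.2% of all pairs. DMD over WT then gave 65 of 185 higher and 35 lower, beside 19.0% and 14.9%. DMD over BMD gave 69 of 178 higher and 24 lower, beside 19.7% and 13.5%. With a fold of 2, 4 of 66 were higher and 8 lower in BMD over WT, beside 1.997% and 2.584% of all pairs. DMD over WT gave 5 of 66 higher and 2 lower, beside 2.95% and 1.68%. For DMD over BMD 7 of 66 were higher and 1 lower, beside 2.77% and 0.973%.

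The class of highest level was kept for 17 of 17 named members with members in the clustering and with the thinned counts, for 16 with free RNA subtracted, 13 at resolution 1.0, 11 with 1000 UMIs, and 10 with doublets removed or with the mitochondrial filter. Where a mesothelial-like cluster appeared, it became the highest class of Rspo1 and Wnt9a, with doublets removed also of Fzd1, Fzd2 and Fzd6, and with the mitochondrial filter also of Fzd6. Wnt11 became highest in endocardial-like nuclei with 1000 UMIs, with doublets removed, with the mitochondrial filter and at resolution 1.0. The cause of the moves was not tested. No library could be left out, since each genotype has 1. No paired analysis was possible because there are no replicates.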
